A study of Mus musculus with 6 samples.

Results

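Germ-cell regulators are the transcription factors and RNA-binding or protein-modifying factors that oocytes need from the primordial follicle onwards. The 10 genes described here are Nobox, Figla, Sohlh1, Sohlh2, Lhx8, Pou5f1, Dazl, Ddx4, Dppa3 and Uchl1, out of 31693 gene names on the array, and each was taken by its name in the scanner files. Every one of the 10 had 1 probe, read from 1 spot per array. The ovaries compared came from female C57BL/6J mice aged 20 weeks, 3 with a knockout of SeBP1 (selenium-binding protein 1, gene Selenbp1) and 3 wild type. RNA of each ovary sample was labelled with Cy3 and hybridised to its own single-colour Agilent whole-genome mouse array. The labels describe neither the deleted part of the gene nor the stage of the oestrous cycle, and they do not say whether the 6 arrays are 6 animals, so p-values here cover only the variation among the samples as deposited.

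In mice, a cascade of germ-cell factors builds and starts the first follicles. Sohlh1 and Sohlh2, basic helix-loop-helix proteins that bind the DNA sequence called the E-box, act early and are needed for expression of Lhx8, Figla and Nobox. Figla switches on the zona pellucida genes, and Nobox drives genes of the growing oocyte such as Gdf9 and Pou5f1. Dazl and Ddx4 act on RNA, and Dppa3 is a maternal protein that protects DNA methylation marks in the zygote. Each ovary holds many more somatic cells than oocytes. In RNA of a whole ovary, fewer oocytes and less RNA per oocyte cannot be told apart.

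E-boxes are what the helix-loop-helix members of the set bind, so the stretch before the transcription start is shown for 4 members that hold them and for Lhx8 and Uchl1, which hold none. Any bearing of E-boxes on the levels across ovaries was not tested. Each line holds the 250 bases before a start, 5′ to 3′ on the gene's strand, from RefSeq on GRCm38.p6, with every match to CANNTG in capitals. CANNTG reads the same on both strands in this notation.
Sohlh1, chr2:25847249-25847498, minus strand: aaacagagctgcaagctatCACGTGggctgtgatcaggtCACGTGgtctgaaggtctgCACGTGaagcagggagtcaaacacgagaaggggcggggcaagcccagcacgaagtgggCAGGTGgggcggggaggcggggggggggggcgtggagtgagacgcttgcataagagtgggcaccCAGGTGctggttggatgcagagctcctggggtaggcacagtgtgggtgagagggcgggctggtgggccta
Nobox, chr6:43309555-43309804, minus strand: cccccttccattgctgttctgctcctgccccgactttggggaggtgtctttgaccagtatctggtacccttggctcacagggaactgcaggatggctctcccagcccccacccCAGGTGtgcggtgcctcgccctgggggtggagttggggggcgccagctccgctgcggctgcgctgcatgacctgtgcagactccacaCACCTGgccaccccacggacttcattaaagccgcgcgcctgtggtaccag
Figla, chr6:86016941-86017190, plus strand: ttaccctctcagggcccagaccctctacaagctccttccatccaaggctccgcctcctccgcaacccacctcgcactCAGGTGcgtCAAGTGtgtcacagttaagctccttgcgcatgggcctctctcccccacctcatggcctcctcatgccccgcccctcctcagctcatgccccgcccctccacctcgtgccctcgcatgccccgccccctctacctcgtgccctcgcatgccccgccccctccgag
Ddx4, chr13:112652311-112652560, minus strand: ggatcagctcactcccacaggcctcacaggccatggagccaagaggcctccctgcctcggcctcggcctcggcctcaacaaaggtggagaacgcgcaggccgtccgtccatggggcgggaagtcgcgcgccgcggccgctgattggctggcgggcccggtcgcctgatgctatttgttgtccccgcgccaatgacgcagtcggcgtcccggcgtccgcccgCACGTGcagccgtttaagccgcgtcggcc
Lhx8, chr3:154330561-154330810, minus strand: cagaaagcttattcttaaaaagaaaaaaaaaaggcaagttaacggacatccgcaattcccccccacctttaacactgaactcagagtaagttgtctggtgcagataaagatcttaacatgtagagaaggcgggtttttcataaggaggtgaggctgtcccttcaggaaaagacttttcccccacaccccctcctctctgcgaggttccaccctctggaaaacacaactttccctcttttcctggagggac
Uchl1, chr5:66675871-66676120, plus strand: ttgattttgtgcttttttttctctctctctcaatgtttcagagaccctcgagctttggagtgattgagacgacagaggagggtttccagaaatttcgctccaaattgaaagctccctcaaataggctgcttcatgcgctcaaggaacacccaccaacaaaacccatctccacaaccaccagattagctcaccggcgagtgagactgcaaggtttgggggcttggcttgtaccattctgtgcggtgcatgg

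Sohlh1 held the most E-boxes of the member windows, 5 in 250 bases, and 1.15% of all 32851 windows in the table held at least 5. Of the E-boxes of Sohlh1, 3 were CACGTG, at 231, 211 and 192 bases before the start, and 0.0609% of all windows held 3 or more copies of CACGTG. Nobox and Figla held 2 E-boxes each, and 31.8% of all windows held at least 2. Ddx4 held 1, a CACGTG 29 bases before its start, and 6.02% of all windows held at least 1 CACGTG. Uchl1 and Lhx8 held 0 in this window. The table gave a window for 9 of the 10 members, and with the 2 starts of Pou5f1 that made 10 windows, of which 8 held an E-box, against 66.2% of all windows. Homeobox proteins such as Nobox bind cores spelled TAATTG or TAGTTG. These and the related core TAATTA, searched on both strands, were found in 0 of the 10 member windows and in 16.1% of all windows. Such cores are rich in A and T. Most member windows held more G and C than the median of 52.4% over all windows, with 70.4% for Ddx4 and 45.6% for 1 start of Pou5f1. Among 10 windows, a count of 0 is too small a sample to set the members apart from 16.1%. A match describes these letters and is not a bound site.

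All 10 probes were well above background on all 6 arrays. Across the arrays, 61.6% to 69.3% of spots were well above background, and the 75th percentile of intensity ran from 1309 to 1759. Repeated spots were least even in wild type replicate 3, where the headers put their median coefficient of variation at 13.2%. The other 5 arrays had 3.22% to 6.94%. The arrays lay on 2 slides. Slide 2 held the 3 knockouts and wild type replicate 3, and slide 1 held wild type replicates 1 and 2. Selenbp1 itself, the check of the labels, was at -0.11, 0.02 and -0.37 in knockout replicates 1 to 3 and at 2.68, 2.53 and 2.59 in wild type replicates 1 to 3, as log2 intensity above or below the array's 75th percentile, the scale used throughout. It was the only probe called, at -2.75 (limma, adjusted p = 0.0104), and under 9 of 18 alternatives no probe was called.

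Of the 10 regulators, 9 had a lower mean in knockout ovaries and Uchl1 a higher mean, but none passed the test and the genotypes overlapped in all 10. In the limma fit over 24415 probes, 0 of the 10 had an adjusted p under 0.05, and 0 had an unadjusted p under 0.05. Over all probes, 0.0041% passed the adjusted threshold, 3.95% the unadjusted threshold and 8.66% had groups that did not overlap. The median difference, knockout minus wild type, was -0.24 over the 10 members and -0.017 over all probes, and 54.3% of all probes had a negative difference. Every member had an adjusted p of 0.9999. With 3 arrays in each genotype the 95% intervals of the differences were wide, and for Lhx8 the interval ran from 0.46-fold to 1.57-fold.

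**Figure D1:**
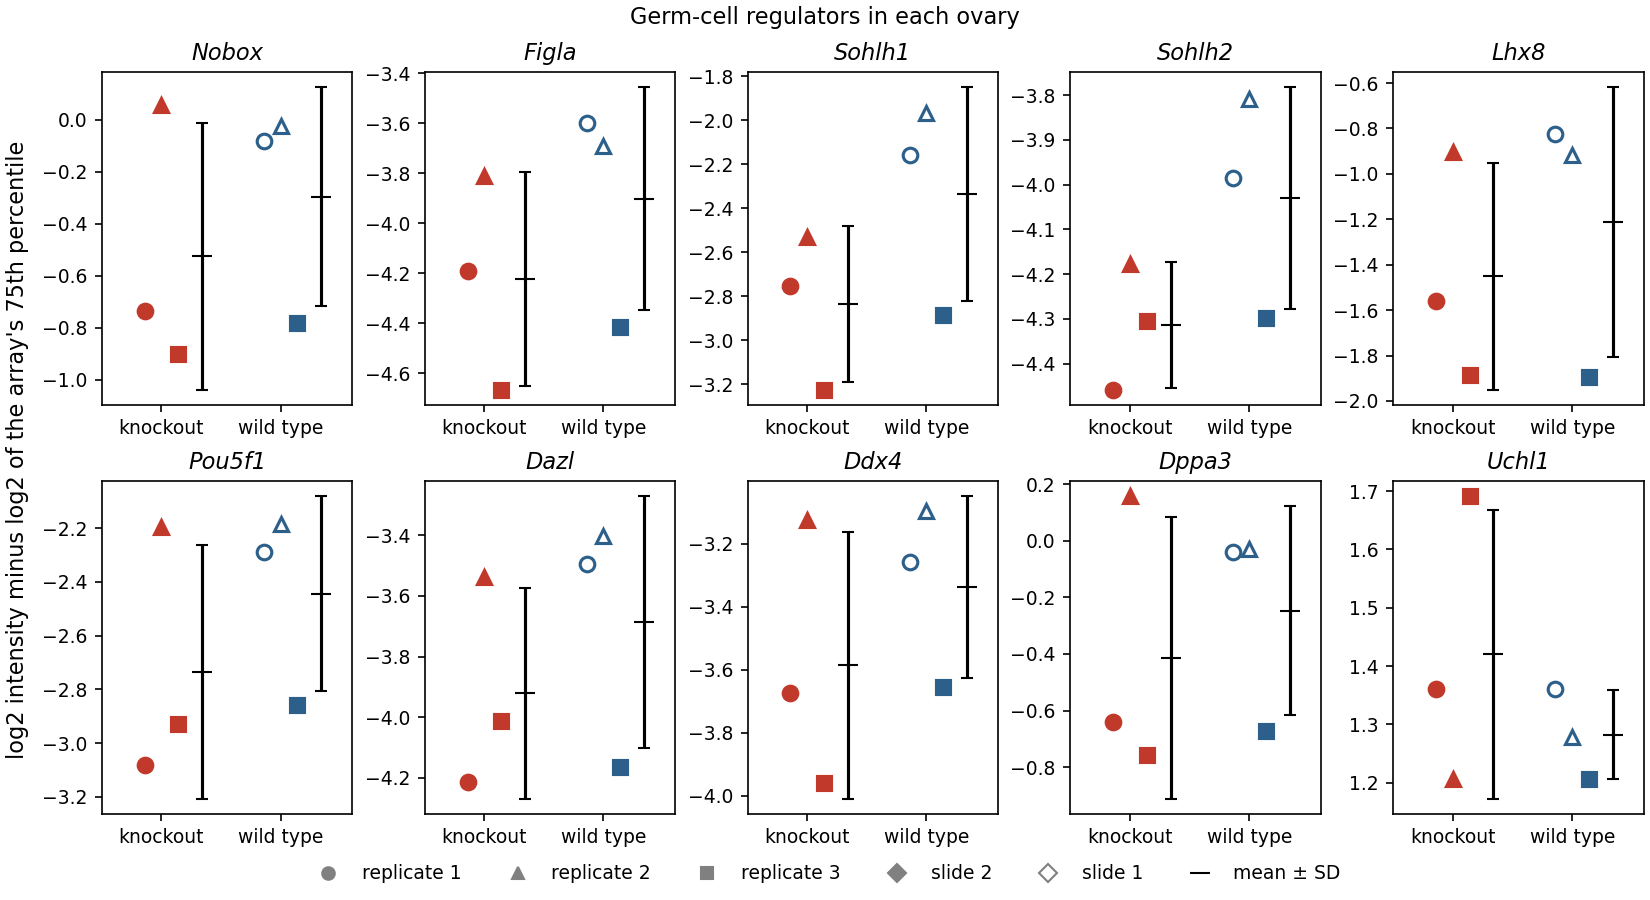
Each panel plots 1 gene, with the log2 intensity relative to the 75th percentile of the array on the y axis and the knockout left of wild type. Points are single ovaries, filled where the array lay on slide 2, and bars give the mean ± SD (n = 3 per genotype). In every panel the points of the genotypes overlap, and in the 9 genes other than Uchl1 knockout replicate 2 lies above the other knockouts and wild type replicate 3 below the other wild types.

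The helix-loop-helix factors had the smallest unadjusted p-values of the set in limma, 0.121 for Sohlh2, 0.130 for Sohlh1 and 0.318 for Figla, none of which passed. Pou5f1 was close to Figla at 0.345. With normexp background correction the differences were -0.17 for Sohlh2, -0.43 for Sohlh1 and -0.22 for Figla. Sohlh1 was at -2.75, -2.53 and -3.22 in knockout replicates 1 to 3 and at -2.16, -1.97 and -2.88 in wild type replicates 1 to 3. Knockout replicates 1 and 2 both lay above wild type replicate 3, so the genotypes overlapped although the 2 highest ovaries were wild type. Its mean was -2.84 ± 0.35 in the knockout and -2.34 ± 0.48 in wild type (SD, n = 3 each), so Sohlh1 differed by -0.50 (SE 0.29), or 0.71-fold with a 95% interval of 0.44 to 1.15. The probe reads the minus strand of chromosome 2 at 25698525 to 25698584 (mm9, as are all probe positions here).

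Sohlh2, the partner of Sohlh1, had the smallest spread of the transcription factors. It was at -4.46, -4.18 and -4.30 in knockout replicates 1 to 3 and at -3.98, -3.81 and -4.30 in wild type replicates 1 to 3. Only wild type replicate 3 reached into the range of the knockouts, by lying just above knockout replicate 3 and below knockout replicate 2. The difference was -0.28 with a standard error of 0.16. The intensities ran from 66.6 to 113 over the 6 arrays (chromosome 3, 55013524 to 55013583).

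Figla, which is needed for primordial follicles to form, was at -4.19, -3.81 and -4.67 in knockout replicates 1 to 3 and at -3.60, -3.69 and -4.41 in wild type replicates 1 to 3. The low ends were knockout replicate 3 and wild type replicate 3, and knockout replicates 1 and 2 lay between the wild types. Figla differed by -0.32 with a standard error of 0.30, and its probe lies on chromosome 6 at 85970895 to 85970954.

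The homeobox factors varied more between ovaries of a genotype than between the genotypes. Nobox was at -0.73, 0.06 and -0.90 in knockout replicates 1 to 3 and at -0.08, -0.02 and -0.78 in wild type replicates 1 to 3. Knockout replicate 2 was the highest ovary of all 6 and knockout replicate 3 the lowest, a range of 0.96 within the knockout. Against that, the genotype means of -0.53 ± 0.51 in the knockout and -0.30 ± 0.42 in wild type (SD, n = 3 each) differed by -0.23 with a standard error of 0.32. The Nobox probe lies on chromosome 6 at 43253726 to 43253785.

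Lhx8, a LIM-homeobox factor that oocytes need to differentiate, was at -1.56, -0.90 and -1.88 in knockout replicates 1 to 3 and at -0.82, -0.92 and -1.90 in wild type replicates 1 to 3. Here wild type replicate 3 was the lowest ovary of all, and its difference from the mean of the other wild types was -1.03. The difference between genotypes was -0.24 with a standard error of 0.37, and the range over all 6 arrays came to 2.10-fold. The probe lies on chromosome 3 at 153969377 to 153969436.

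Pou5f1, the POU factor of pluripotent cells that growing oocytes also express, was at -3.08, -2.20 and -2.93 in knockout replicates 1 to 3 and at -2.29, -2.19 and -2.86 in wild type replicates 1 to 3. Knockout replicate 2 matched the wild types of slide 1, while the other knockouts lay beside wild type replicate 3. The difference was -0.29 with a standard error of 0.29 (chromosome 17, 35647280 to 35647340).

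The RNA regulators repeated this grouping. Dazl, an RNA-binding protein that controls translation in germ cells, was at -4.21, -3.54 and -4.01 in knockout replicates 1 to 3 and at -3.50, -3.40 and -4.16 in wild type replicates 1 to 3. Ddx4, the mouse vasa helicase of germ-cell granules, was at -3.67, -3.13 and -3.96 in knockout replicates 1 to 3 and at -3.26, -3.10 and -3.66 in wild type replicates 1 to 3. For both genes knockout replicate 2 sat with wild type replicates 1 and 2, and the remaining knockouts with wild type replicate 3. Dazl differed by -0.23 with a standard error of 0.26 and Ddx4 by -0.25 with a standard error of 0.25. Their probes lie on chromosome 17 at 50418923 to 50418982 and on chromosome 13 at 113388616 to 113388675.

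Dppa3, the maternal factor also called Stella, had the smallest negative difference. It was at -0.64, 0.16 and -0.76 in knockout replicates 1 to 3 and at -0.04, -0.03 and -0.67 in wild type replicates 1 to 3. Knockout replicate 2 was its highest ovary and knockout replicate 3 its lowest, and the means differed by -0.17 with a standard error of 0.30. The files assign this probe, on chromosome 6 at 122580207 to 122580266, to a predicted transcript besides that of Dppa3, so its signal may not be from Dppa3 alone.

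Uchl1 stood apart from the other 9. This deubiquitinating enzyme is abundant in oocytes and also in neurons. Its level was 1.36, 1.21 and 1.69 in knockout replicates 1 to 3 and 1.36, 1.28 and 1.21 in wild type replicates 1 to 3. Knockout replicate 3, the lowest or next to lowest ovary for every other member but Dazl, was the highest for Uchl1, and the wild types spanned a range of only 0.15. The means of 1.42 ± 0.25 in the knockout and 1.28 ± 0.076 in wild type (SD, n = 3 each) differed by 0.14 with a standard error of 0.15, and without knockout replicate 3 the difference was 0.0018. The probe spans 67073886 to 67074977 on chromosome 5, which is 1092 bases of genome, against 60 or 61 for the other probes.

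The 9 genes other than Uchl1 shared a split into high and low ovaries that crossed the genotypes. In 9 of these 9 genes, knockout replicate 2 and wild type replicates 1 and 2 were the 3 highest ovaries. Relative to each gene's own mean, the median of the 10 members was -0.26 in knockout replicate 1, 0.30 in knockout replicate 2 and -0.46 in knockout replicate 3, against 0.31, 0.38 and -0.32 in wild type replicates 1 to 3. Wild type replicate 3 lay below the gene's mean in all 10 members and wild type replicate 1 above it in all 10. The spread within genotypes was larger than for most probes: the pooled SD of Lhx8 was 0.55, above that of 92.4% of the probes tested, and those of Nobox, Dppa3 and Figla were 0.47, 0.44 and 0.44, against a median of 0.19 over all probes. Sohlh2 at 0.20 and Uchl1 at 0.18 were near that median.

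**Figure D2:**
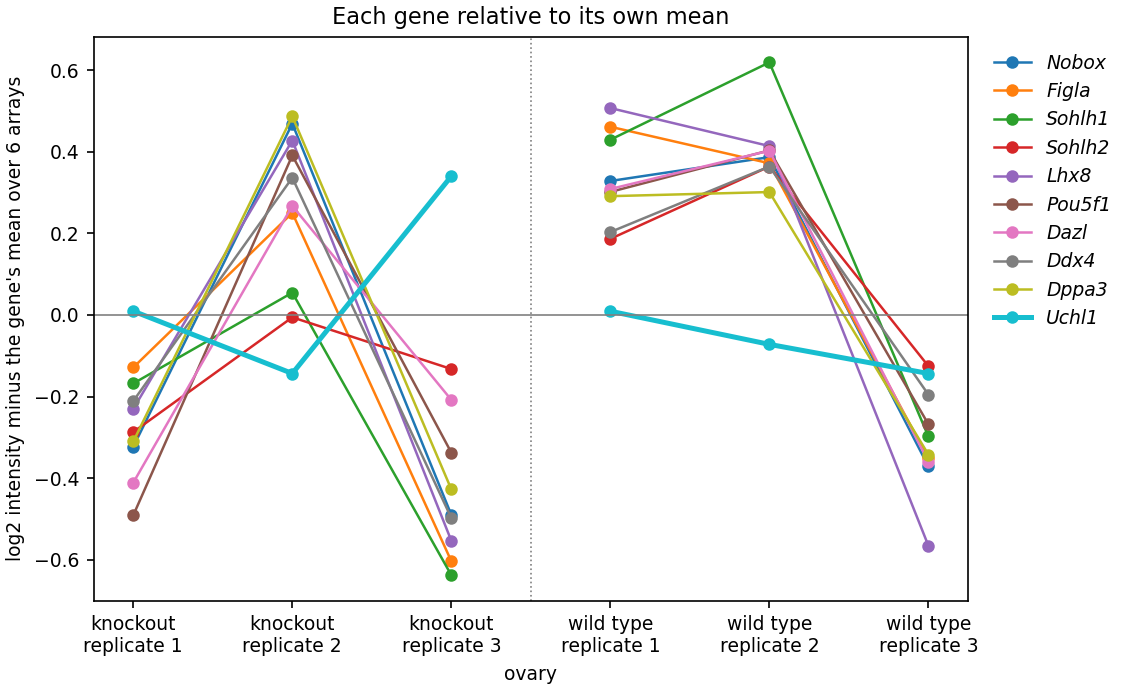
The log2 intensity of each gene minus its mean over the 6 arrays is plotted on the y axis for the knockouts, left of the dotted line, and the wild types. Lines only join points of a gene within a genotype. The 9 thin lines are high in knockout replicate 2 and in wild type replicates 1 and 2, with Sohlh1 at 0.05 and Sohlh2 at -0.0058 in knockout replicate 2, and the thick line of Uchl1 is highest in knockout replicate 3 at 0.34.

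How alike the members were was measured as the mean absolute difference between their centred values over the 6 arrays, in log2 units. Between the 9 genes, the 36 pairs ran from 0.041 to 0.29 with a median of 0.14. The closest pair was Nobox and Dppa3 at 0.041, followed by Pou5f1 and Dazl at 0.072, and Sohlh1 was closest to Figla at 0.10. Pairs with Uchl1 ran from 0.26 to 0.52. Set against the median profile of the other 9 members, Nobox lay at 0.079, and 106 of 18292 other genes (0.58%) lay closer. For Dppa3 and Ddx4 that share was 0.65% and 0.78%, for Sohlh1 and Sohlh2 it was 5.06% and 5.54%, and for Uchl1 73.2%. These shares describe 6 arrays in which genes are not independent.

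Outside the set, clone and predicted gene names were left out, and probes had to be well above background on all 6 arrays. The 5 genes then closest in profile to the members' median were Ybx2, Khdc3, Npm2, Nlrp4f and Ninj2, at distances of 0.024 to 0.034. Ybx2 encodes a germ-cell Y-box protein that binds stored RNA, and Khdc3 and Npm2 encode maternal-effect proteins of the egg. Nlrp4f and Ninj2, which encodes ninjurin 2, were on none of the gene lists used here. Ybx2 was at -0.29, 0.32 and -0.42 around its mean in knockout replicates 1 to 3 and at 0.33, 0.39 and -0.33 in wild type replicates 1 to 3. Its difference of -0.26 had a standard error of 0.27 and did not pass the test, nor did those of the other 4, from -0.28 for Npm2 to -0.20 for Nlrp4f.

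Other oocyte genes showed the same split into high and low ovaries. All 7 zona pellucida and oocyte-secreted genes and all 14 maternal genes of growing oocytes had a lower mean in the knockout, with median differences of -0.19 and -0.22, and 0 of either list was called in either direction. Each of these genes lay above its own mean in knockout replicate 2 and wild type replicates 1 and 2, and below it in knockout replicates 1 and 3 and wild type replicate 3. Zp2, a sperm-binding zona protein, was at -0.15 ± 0.40 in the knockout and 0.12 ± 0.51 in wild type (SD, n = 3 each). Zp1, the zona protein that links filaments, differed by -0.25, and Kpna7, an oocyte importin, by -0.34. Without knockout replicate 3, Zp2 was at -0.069, Zp1 at -0.011 and Kpna7 at -0.18.

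Germ-cell lists with more members outside the growing oocyte were mixed in direction between the genotypes. Their medians still split the ovaries in the same way, with knockout replicate 2 and wild type replicates 1 and 2 high. Knockout replicate 2 lay above the gene's mean in 11 of 12 RNA regulators and piRNA genes and 9 of 11 transcription and chromatin factors. The same held for 7 of 8 meiosis genes and 5 of 8 pluripotency genes. Of 12 measured RNA regulators and piRNA genes, 7 were lower and 5 higher, with Tex14 at -0.59 and Tdrkh, which was well above background on 5 arrays, at 0.74 (0.27 with normexp background correction and 0.30 without knockout replicate 3). Boll, Tdrd1, Tdrd6, Tdrd9, Piwil2 and Mov10l1 did not pass the filter on background. Among 11 other transcription and chromatin factors 8 were lower, with a median of -0.13. Tbpl2, the oocyte TATA-binding factor, was at -5.09 ± 0.37 in the knockout and -4.54 ± 0.11 in wild type (SD, n = 3 each), and Trim28 differed by 0.21. Of 8 measured meiosis genes 4 were lower, and Msh4, of meiotic recombination, was at -0.56 with a standard error of 0.16, while Sycp3 was at -0.46. Sycp1, Sycp2, Dmc1 and Hormad1 did not pass the filter, nor did Sox2, Zfp42, Dppa4 and Prdm14 of the pluripotency list. Measured pluripotency genes had 4 of 8 lower, with Nanog at 0.18 and Klf4 at 0.24. The genotypes did not overlap for Tbpl2, Trim28, Msh4 and Nanog, the only such genes of these 4 lists, where 8.66% of all probes did not overlap. With normexp background correction, Tbpl2 was at -0.32, Msh4 at -0.28, Sycp3 at -0.22 and Klf4 at 0.15. Klf4 was at 0.45 without knockout replicate 2. In these 4 lists 0 genes were called, and the unadjusted p was under 0.05 for Tbpl2 (0.0307) and Msh4 (0.0111), each with an adjusted p of 0.9999 in limma.

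**Figure D3:**
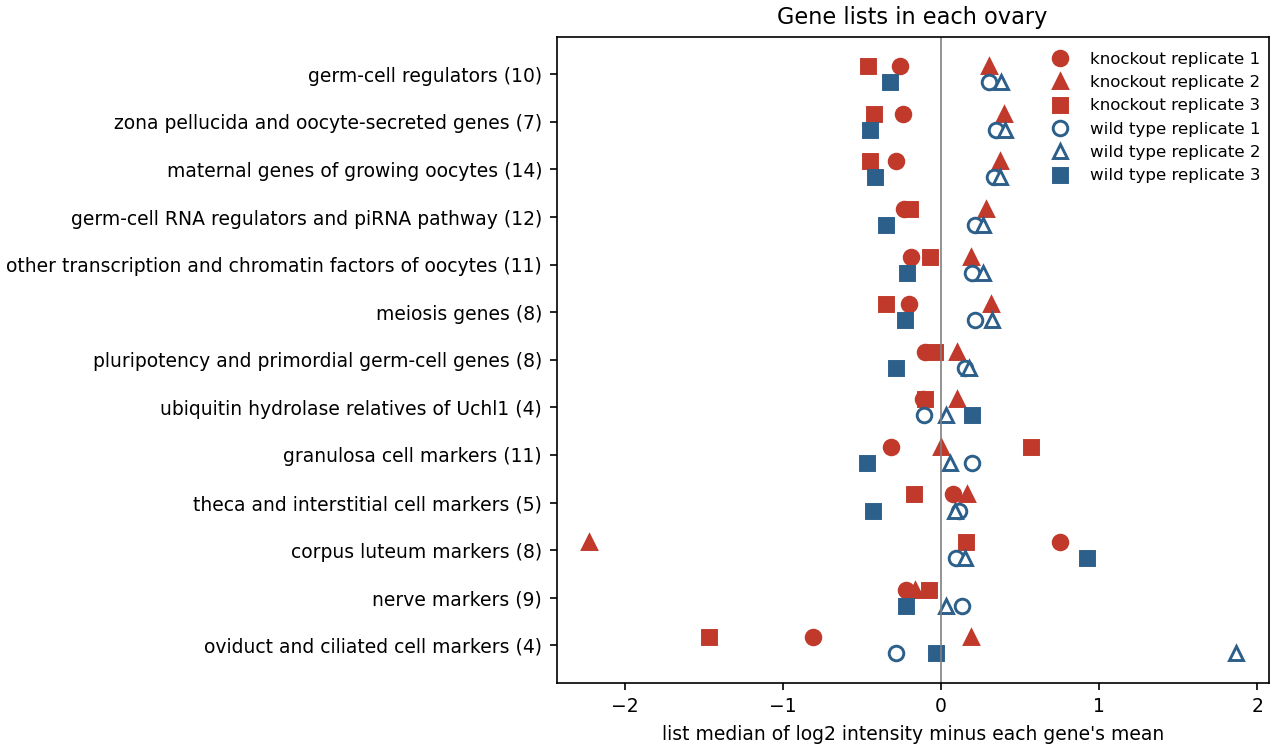
For each list, with the number of measured genes in brackets, the x axis gives the median over its genes of the log2 intensity minus the gene's own mean. Symbols are ovaries, with the knockouts in red drawn just above the wild types in blue, and filled where the array lay on slide 2. The 3 uppermost lists span the same range, from about -0.46 to 0.41, with the same ovaries on either side of 0. Those ovaries also lie on the same sides of 0 in the RNA, chromatin, meiosis and pluripotency lists, over narrower ranges. The corpus luteum list reaches -2.23 in knockout replicate 2.

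RNA levels of somatic cell markers differed between ovaries as well. Corpus luteum markers had a median of 0.75, -2.23 and 0.16 around their mean in knockout replicates 1 to 3 and of 0.093, 0.15 and 0.92 in wild type replicates 1 to 3. Knockout replicate 2 was thus high for the germ-cell regulators and the lowest for luteal genes, and wild type replicate 3 was low for the regulators and the highest for luteal genes. Other ovaries did not follow this. Knockout replicate 3 and wild type replicate 2 had like luteal medians, 0.16 and 0.15, but the lowest and highest regulator medians, -0.46 and 0.38. Granulosa markers were at -0.31, 0.0022 and 0.57 in knockout replicates 1 to 3 and at 0.20, 0.056 and -0.47 in wild type replicates 1 to 3. The part of these cell types in the levels of the regulators was not tested. Granulosa markers had 7 of 11 higher, luteal markers 1 of 8, theca markers 2 of 5, and oviduct and ciliated cell markers 0 of 4, with Foxj1, Dnah5 and Sntn not passing the filter. Of the markers with the smallest p in each list, Lhcgr differed by -1.22, Cyp11a1 by -0.76, Cyp17a1 by 0.64 and Amh by 0.39. Foxl2, also among these, differed by -0.19 with no overlap, where 8.66% of all probes did not overlap, and by -0.099 with normexp. Of the 4 lists of somatic and oviduct cells, 0 held a called gene. Without knockout replicate 2, Lhcgr was at -0.22, Cyp11a1 at -0.036 and Amh at 0.13, and without wild type replicate 3 Cyp17a1 was at 0.22. Over 9 measured nerve markers (Nefl and Nefm did not pass the filter), set beside Uchl1, the median ran from -0.22 in knockout replicate 1 to 0.13 in wild type replicate 1. The median was -0.075 in knockout replicate 3, where Uchl1 was highest, and 3 of the 9 nerve markers lay above their own mean there. Stmn2 differed by -1.26 (limma, unadjusted p = 0.0356), or -0.51 with normexp. Elavl4 differed by 0.31, or 0.13 without knockout replicate 3. The relatives of Uchl1 spanned 0.31 between ovaries, with Uchl4 at -0.16 and Bap1 at -0.034. Oviduct and ciliated cell markers were lowest in knockout replicate 3 (-1.47) and highest in wild type replicate 2 (1.87), with Ccdc153 at -1.93 (-1.15 with normexp) and Rsph1 at -0.52.

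Within slide 2, which carried both genotypes, the direction of most members turned. Against wild type replicate 3 alone, the mean of the knockouts was higher for 9 of the 10 members, with a median of 0.20, where the median of all probes was 0.031 and 54.5% of them were higher. Lhx8 was at 0.45, Dppa3 and Nobox at 0.26, Dazl at 0.24, Figla at 0.19, Pou5f1 at 0.12, Ddx4 at 0.071 and Sohlh1 at 0.047, and Sohlh2 alone stayed lower at -0.016. Uchl1 kept its direction at 0.21. That comparison rests on a single wild-type array. The size rested on single arrays as well. Leaving out wild type replicate 3 put the median of the members at -0.47, and leaving out knockout replicate 2 put it at -0.49. Array weights gave -0.56. Leaving out wild type replicate 2 gave -0.11, and leaving out knockout replicate 3 gave -0.080. In each of these fits 0 of the 10 members were called, where the share called over all probes was 0.0781% without wild type replicate 3 and at most 0.00436% in every other alternative.

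**Figure D4:**
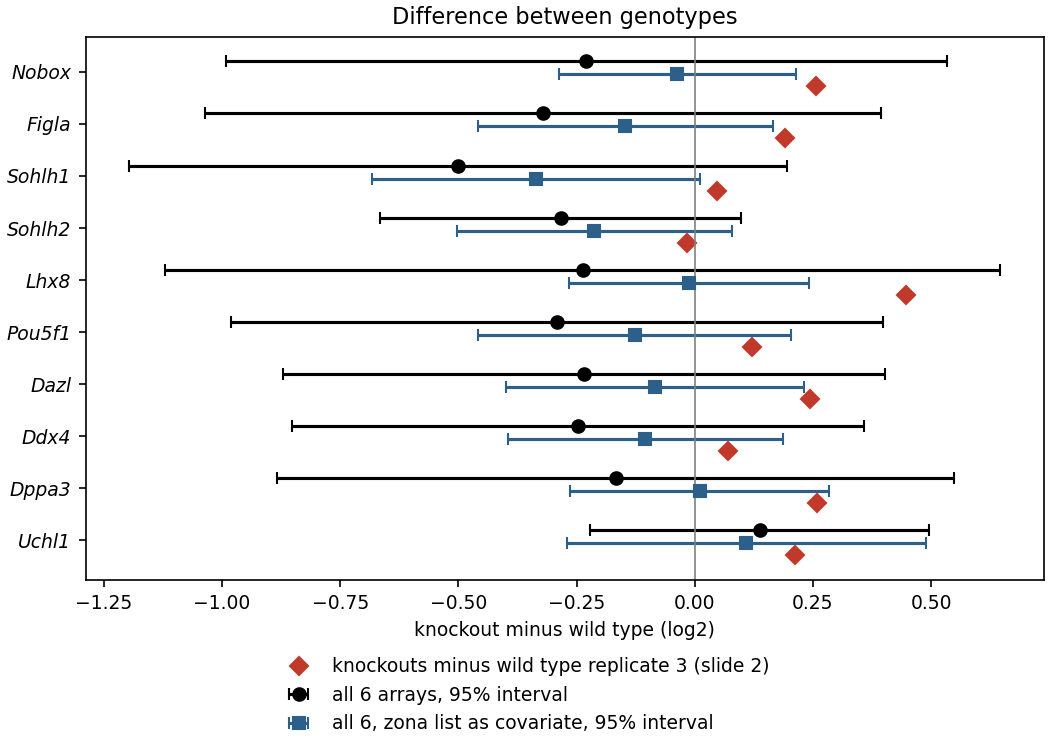
The x axis gives knockout minus wild type in log2 units for each gene. Black points use all 6 arrays and blue squares the same arrays with the zona list as a covariate, both with 95% intervals, and red diamonds set the knockouts against wild type replicate 3 alone. Every interval crosses 0, and those of the 9 genes other than Uchl1 are narrower with the covariate.

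Relative to the zona and oocyte-secreted genes, most members varied less between ovaries. These genes had the same split into high and low ovaries as most members, so subtracting them was bound to narrow most ranges. As a covariate they were likewise bound to shrink most differences, and some of them are targets of Figla and Nobox. Neither step tests why levels differed between ovaries or genotypes. After the median of the 7 zona and secreted genes was subtracted on each array, the range of Nobox over the 6 arrays was 0.16, against 0.96 before, and that of Lhx8 was 0.29, against 1.07 before. The range shrank for 8 of the 9 genes other than Uchl1, and grew for Sohlh2 to 0.73, against 0.65 before. The range of Uchl1 grew to 1.30, against 0.48 before. With the same profile as a covariate in limma, a setting chosen after the values had been seen, the difference between genotypes was -0.037 for Nobox (95% interval -0.29 to 0.21), -0.012 for Lhx8 (-0.27 to 0.24) and 0.010 for Dppa3 (-0.26 to 0.28). Sohlh1 kept the largest difference, at -0.34 with a standard error of 0.14 and an interval of -0.68 to 0.011, with an adjusted p of 0.660. Its values relative to the zona genes were 0.073, -0.35 and -0.22 in knockout replicates 1 to 3 and 0.082, 0.21 and 0.15 in wild type replicates 1 to 3. The genotypes then no longer overlapped, and knockout replicate 1 lay close to wild type replicate 1. Of all probes, 2.37% had no overlap when treated in this way, against 8.66% before. The subtracted profile crosses the genotypes and spans 0.86, which adds overlap to probes that do not follow the zona genes. The lower share is therefore not a like background for Sohlh1. With the covariate, Figla and Sohlh2 were at -0.15 and -0.21 with intervals that included 0, and no member was called.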

How the data were processed

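Each scanner file, as deposited, gives spot intensity made with Agilent Feature Extraction 10.7.1.1, background-subtracted and detrended within the array, per the file headers. Probe positions are on mm9, per the file headers. The values deposited for the whole series are intensity too, with equal medians across arrays. The steps behind them are not stated in the labels, and they served as an alternative. Outlier spots and controls were dropped, leaving up to 43020 spots of 39429 probes. Values are log2 of processed intensity minus log2 of the array's 75th percentile. Probes (24415) were kept if all 3 arrays of either genotype were well above background. Genes of the other lists were matched by name, and the brightest kept probe stood for a gene.

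Genotypes were compared by limma 3.58.1 (lmFit, eBayes; R 4.3.3), two-sided, with genotype as the only term and p-values adjusted by Benjamini-Hochberg over all kept probes. The fit was tested on simulated data. The number of arrays limits the precision. Members, lists and naming rules were chosen with earlier results of these data known. Named genes are the 10 members, Selenbp1, the 2 genes of each list with the smallest p, and the 5 genes closest in profile. Alternatives changed the background correction, normalization, filter, slide, replicate block and array weights, or left out an array.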

Additional observations from a re-analysis of the deposited data

How the results depend on the processing

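Of 180 recomputed differences of the 10 members (18 alternatives each), 162 kept their direction and no member was called under any of them. The changes of filter and the replicate block could not move a member's difference, so for these settings the direction was fixed in advance. With slide as a fixed block and on slide 2 alone, which give the same estimates, the median of the members was 0.20, 1 of 10 was lower, and the difference turned to 0.26 for Nobox, 0.19 for Figla, 0.047 for Sohlh1, 0.45 for Lhx8, 0.12 for Pou5f1, 0.24 for Dazl, 0.071 for Ddx4 and 0.26 for Dppa3. Other genes named turned likewise, to 0.31 for Zp2, 0.21 for Zp1, 0.23 for Kpna7, 0.15 for Npm2, 0.20 for Ybx2, 0.23 for Khdc3, 0.27 for Nlrp4f and 0.22 for Ninj2. These settings set the knockouts against wild type replicate 3 alone. Dppa3 was at 0.010 with the zona list as a covariate, an alternative chosen after seeing the data, and between -0.45 and 0.0049 over the arrays left out, the last without knockout replicate 3, and Amh at -0.0040 with array weights. Over the arrays left out in turn, the median of the members ran from -0.49 to -0.080 and the number lower from 8 to 9. The count of genes called was 1 (Selenbp1) in the main setting. It was 0 with no filter on background, slide as a fixed block, slide 2 alone, the replicate block and the zona covariate, and between 0 and 19 with an array left out, 19 being without wild type replicate 3. The replicate block left all members uncalled. The replicate numbers used here differ from those in most sample titles, so they do not pair the samples. Deviations from the group means correlated across probes at -0.33, 0.30 and -0.027 for numbers 1 to 3. The cause of these changes was not tested. Each of the 10 members has 1 probe, so the planned averaging of a member's probes gave no other value. Intensities of Figla, Sohlh2, Dazl and Ddx4 lay between 61.5 and 184.8, against a lowest value well above background of 17.6 to 29.0.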

Other observations

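The profile of Uchl1 over the 6 ovaries was singled out after its values were seen. With clone and predicted names left out, it was closest to those of Zfp646, Pskh1, Tmem214, Pheta2 and Hdac2. Their mean absolute differences from Uchl1 were 0.035 to 0.043 in log2 units. Zfp646 encodes a zinc finger protein and Hdac2 a histone deacetylase. Zfp646 was at 0.34 in knockout replicate 3 around its mean, where Uchl1 was also at 0.34. On the other arrays it lay between -0.22, in wild type replicate 3, and 0.018, in knockout replicate 1. Its difference of 0.19 had a standard error of 0.14 and did not pass the test (limma, adjusted p = 0.9999).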
